A study of Homo sapiens with 6 samples.

Results

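The human mitochondrial genome carries 37 genes, and all of them had a row in the count table of Meg-01 cells that were left untreated or were treated with propionate (C3). They were chosen by their symbols, which start with MT-, and were set beside 14 nuclear genes. Proteins of these 14 act in transcription or replication of the mitochondrial genome, or in the stability, processing, modification or decay of its RNA. These 51 genes were among 58735 genes in the table. Meg-01 is a long-established human line of megakaryoblasts, and gut bacteria make C3, a short-chain fatty acid, from fibre. The control group was Meg-01 with no treatment, and the C3 group was Meg-01 given 500 µM sodium propionate for 48 h, with 3 RNAseq libraries in each group. The study's methods name incubations of 24 h and of 48 h before RNA extraction, and its legend calls the libraries technical replicates, so that the p-values below measure the spread between libraries and not necessarily that between cultures. Levels are given as CPM, the counts of a gene relative to the scaled total of its library. Library totals lay between 16159449 and 22821722 counts. Of 10 megakaryoblast markers, 8 passed the count filter, among them ITGA2B (693 CPM in controls), TAL1 (279 CPM) and GATA1 (97.6 CPM), whereas PF4 and GP1BB had 0 counts. Markers of lymphocytes and fibroblasts were at 3.54 CPM or less in controls, and of those of monocytes and epithelium LYZ (32.9 CPM), KRT18 (91.9 CPM) and EPCAM (10.2 CPM) were the highest. Some markers changed with C3 in edgeR's test, with falls of NFE2 (172 to 132 CPM), LYZ (32.9 to 23.1 CPM) and KRT18 (91.9 to 72.9 CPM) and rises of ITGB3 (9.87 to 12.5 CPM) and COL1A1 (0.24 to 0.91 CPM), and their part in the results below was not tested.

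Mitochondrial DNA is a small circle that is read from both strands. One RNA polymerase, POLRMT, starts with the help of TFAM and TFB2M and makes long RNAs that span many genes, and most mRNAs and rRNAs are released when the tRNAs between them are cut out. The mRNAs encode core subunits of respiratory chain complexes and of ATP synthase, the rRNAs form the mitochondrial ribosome, and the tRNAs serve its translation. All other proteins that the process needs are encoded in the nucleus. By the usual naming, 28 of the genes are products of heavy-strand transcription, whose RNA reads as the plus strand of the annotation. The other 9 genes, MT-ND6 and tRNAs, are products of light-strand transcription and lie on the minus strand.

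Sequences of hg38 (GRCh38, gene positions of GENCODE release 44) are shown here for the tRNA genes that the results turn on, and for places where neighbouring genes share bases. MT-TL1 (tRNA-Leu) lies at chrM:3230-3304 on the plus strand, just after MT-RNR2. Its capitals mark 9 letters, GGCAGAGCC at chrM:3238-3246, within the stretch known to bind the termination factor MTERF1. They occur 1 time in the 16569 bases of the mitochondrial genome, both strands searched. The other 3 tRNA genes lie on the minus strand in a row, MT-TN (tRNA-Asn) at chrM:5657-5729, MT-TC (tRNA-Cys) at chrM:5761-5826 and MT-TY (tRNA-Tyr) at chrM:5826-5891, and are given 5′ to 3′ as RNA-sense DNA. The 31 bases between MT-TN and MT-TC, at chrM:5730-5760 and given on the plus strand, are known as the origin of light-strand replication.
MT-TL1: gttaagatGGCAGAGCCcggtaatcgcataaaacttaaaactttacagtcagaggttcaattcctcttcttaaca
MT-TN: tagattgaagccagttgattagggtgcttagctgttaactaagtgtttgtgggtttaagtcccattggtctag
MT-TC: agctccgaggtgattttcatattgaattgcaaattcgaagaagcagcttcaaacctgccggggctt
MT-TY: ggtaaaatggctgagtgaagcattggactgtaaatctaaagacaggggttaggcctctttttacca
between MT-TN and MT-TC: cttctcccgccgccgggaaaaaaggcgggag

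MT-ATP8 and MT-ATP6 share 46 bases (chrM:8527-8572), and MT-ND4L and MT-ND4 share 7 (chrM:10760-10766). Each pair is carried by a single mRNA with 2 reading frames. The shared bases are in capitals below, with 9 bases on either side. They bear on the counts because a read there belongs to both genes, and how such reads were counted is not given in the sources used here.
MT-ATP8 and MT-ATP6: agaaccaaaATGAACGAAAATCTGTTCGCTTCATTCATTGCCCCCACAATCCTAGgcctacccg
MT-ND4L and MT-ND4: cctactccaATGCTAAaactaatcg

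Some mitochondrial mRNAs end before their stop codon is complete, and the poly(A) polymerase MTPAP supplies the missing adenines. The last 18 bases are shown for the mRNA with the largest decrease, MT-CO3, for MT-ND1, which ends in 2 bases of a stop codon, and for MT-CO1, with the bases of the stop in capitals. MT-ND2, MT-ND3, MT-ND4 and MT-CYB end like MT-CO3 in a single T.
MT-CO3: tctattgatgagggtctT
MT-ND1: cattccccctcaaaccTA
MT-CO1: gtatacataaaatctAGA

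After C3 treatment, most transcripts of the mitochondrial genome took a smaller part of the libraries. The 37 genes held 4.16%, 4.58% and 5.51% of all counts in control replicates 1, 2 and 3 and 3.83%, 3.87% and 3.51% in C3 replicates 1, 2 and 3. All C3 libraries lay below all control libraries. The means were 4.75% ± 0.69 and 3.74% ± 0.20 (SD, n = 3 libraries each), a ratio of 0.788. The difference of -1.01 percentage points gave p = 0.1 (exact permutation test, two-sided), which is the lowest value that a design of 3 against 3 libraries can reach. Wilson 95% intervals of the shares reached at most 0.0111 percentage points to either side, so counting error was small beside the spread between libraries. Control replicate 3 stood highest, and without it the difference was -0.63 percentage points. The share is relative to all counts, so a fall of mitochondrial RNA and a rise of other RNA cannot be told apart. If mitochondrial RNA fell, bulk libraries cannot separate less of it in every cell from a larger part of cells with little of it. Nor can they separate fewer mitochondrial genomes per cell from less RNA per genome.

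Of the 37 genes, 22 passed the count filter and were tested with edgeR's quasi-likelihood test at an adjusted p below 0.05. Of these, 15 fell and 1 rose, where 8.77% of all 15078 genes tested fell and 11.0% rose. In 13 of the 22, all C3 libraries lay below all control libraries, which held for 16.9% of all genes tested. The median log2 fold change of the 22 was -0.42, beside 0.0021 over all genes tested. With the study's gates for DEGs, an adjusted p below 0.01 and a fold change above 1.3, 10 genes were lower DEGs, and 1.47% of all genes were. They were 7 mRNA and 3 tRNA genes. In the other direction, 5.05% of all genes passed these gates, and the gene that rose did not. Control replicate 3 had the highest control level in all 15 mRNA and rRNA genes, and C3 replicate 3 had the lowest C3 level in 12 of them. Without control replicate 3, 10 genes fell and 3 were DEGs, and without C3 replicate 3, 12 fell and 3 were DEGs. DESeq2 found 9 that fell, 6 of them DEGs.

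**Figure D1:**
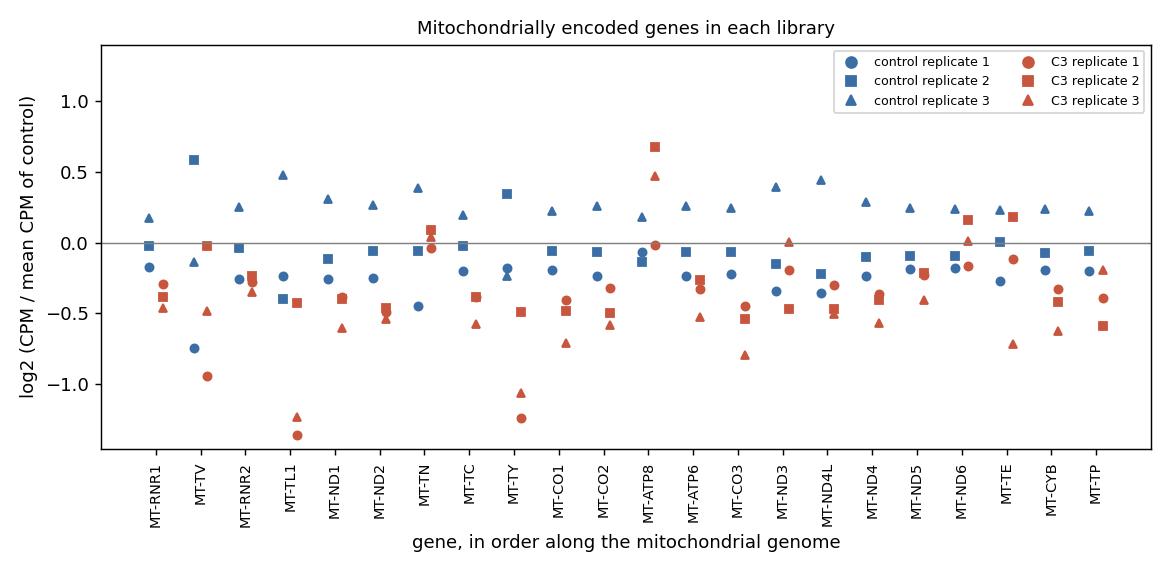
Level of the 22 tested mitochondrially encoded genes in each library, as log2 of CPM over the mean CPM of the control libraries (vertical axis), with genes in their order along the mitochondrial genome (horizontal axis). Blue points are control and red points C3 libraries, and control replicate 3 (blue triangles) lies highest of the controls in all 15 mRNA and rRNA genes, while all C3 libraries lie below 0 in both rRNAs and in the mRNAs other than MT-ND3, MT-ND6 and MT-ATP8.

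Complex I, the NADH dehydrogenase of the respiratory chain, takes 7 subunits from mitochondrial genes, and 5 of these genes fell. MT-ND2 had the strongest change, with 869, 992 and 1241 CPM in controls and 736, 750 and 712 CPM after C3. All C3 libraries were lower, with a log2 fold change of -0.50 (SE 0.086, adjusted p = 1.77e-04). MT-ND1 was at 730, 807 and 1082 CPM in controls and 669, 664 and 576 CPM after C3 (log2 fold change -0.46, SE 0.095, adjusted p = 0.0012). MT-ND4, the most abundant of the 7 in counts, was at 1882, 2071 and 2711 CPM and at 1728, 1679 and 1496 CPM (-0.44, SE 0.093, adjusted p = 0.0013). In these 3 genes the groups did not overlap, and all 3 were DEGs. Without control replicate 3, MT-ND2 was at -0.35 (adjusted p = 0.0015), MT-ND1 at -0.27 (adjusted p = 0.013) and MT-ND4 at -0.27 (adjusted p = 0.014), all still called but short of the gate of 1.3-fold. MT-ND1 and MT-ND4 also missed the DEG gates without C3 replicate 3, and MT-ND4 with library size alone. MT-ND5, the gene of a proton-pumping subunit, was at 690.0, 736 and 933 CPM in controls and 670.0, 678 and 594 CPM after C3. It fell by 0.28 on the log2 scale (SE 0.084, adjusted p = 0.019); the lowest control and the highest C3 library lay close together. MT-ND4L had 332, 364 and 578 CPM in controls and 346, 307 and 300 CPM after C3, so the groups overlapped, and it fell by 0.42 (SE 0.12, adjusted p = 0.013).

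MT-ND3 and MT-ND6 did not pass the test. MT-ND3 was at 221, 253 and 367 CPM in controls and 246, 202 and 281 CPM after C3, with overlapping groups (log2 fold change -0.20, SE 0.12, adjusted p = 0.24). With no count filter it was called lower (adjusted p = 0.022), and without control replicate 3 it was at 0.038. MT-ND6, the mRNA made from the opposite strand, was at 150.2, 160 and 201 CPM and at 152, 190.1 and 172 CPM, with overlapping groups (log2 fold change 0.012, SE 0.086, adjusted p = 0.94). The calls of MT-ND5 and MT-ND4L were lost without control replicate 3, where their log2 fold changes shrank to -0.14 and -0.13. They were also lost without C3 replicate 3 (-0.22 and -0.38) and with DESeq2, where the log2 fold changes were -0.29 and -0.43 and the adjusted p 0.19 and 0.31. MT-ND5 also lost its call when libraries were scaled by library size alone. DESeq2 also placed MT-ND1 (adjusted p = 0.073) and MT-ND4 (0.055) above the threshold.

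The mRNAs of complexes III and IV all fell. MT-CYB, which encodes cytochrome b, the one mitochondrially encoded subunit of complex III, had 1428, 1549 and 1924 CPM in controls and 1304, 1222 and 1059 CPM after C3. It fell by 0.45 on the log2 scale (SE 0.088, adjusted p = 6.35e-04). Complex IV, cytochrome c oxidase, has its catalytic core encoded by MT-CO1, MT-CO2 and MT-CO3. MT-CO3 was at 3220, 3591 and 4455 CPM in controls and 2749, 2581 and 2166 CPM after C3, the largest decrease among the mRNAs (-0.59, SE 0.095, adjusted p = 7.48e-05). MT-CO1, the most abundant mRNA, was at 8579, 9388 and 11438 CPM and at 7400, 7003 and 6006 CPM (-0.53, SE 0.093, adjusted p = 2.05e-04). MT-CO2 was at 2469, 2773 and 3466 CPM and at 2319, 2062 and 1942 CPM (-0.46, SE 0.092, adjusted p = 7.29e-04). In all 4 genes the groups did not overlap, and each of these falls was called under every alternative run. All 4 were DEGs, and MT-CO1 and MT-CO3 passed those gates under every alternative too. MT-CYB and MT-CO2 missed them without control replicate 3 (-0.32 and -0.31), with DESeq2 (adjusted p = 0.026 and 0.031) and without C3 replicate 3 (adjusted p = 0.012 and 0.011), and MT-CYB also with library size alone.

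The pair of ATP synthase genes differed in direction. A single mRNA carries both, yet in controls MT-ATP8 had 64.4 and MT-ATP6 2915 CPM per kilobase. MT-ATP8 shares 22.2% of its exon bases, and how reads there were counted is not given. The counts of MT-ATP8 therefore need not follow the level of that mRNA. MT-ATP6 was at 1689, 1899 and 2368 CPM in controls and 1582, 1655 and 1380 CPM after C3. It fell by 0.37 (SE 0.091, adjusted p = 0.0050), with groups that did not overlap. MT-ATP8, whose frame opens the shared mRNA, had 12.7, 12.1 and 15.1 CPM in controls and 13.2, 21.2 and 18.4 CPM after C3. Its groups overlapped, and it rose by 0.42 on the log2 scale (SE 0.13, adjusted p = 0.024). This call was lost with DESeq2 (adjusted p = 0.075) and without control replicate 1, control replicate 2, C3 replicate 2 or C3 replicate 3 in turn. Without C3 replicate 2 it was at 0.27. Over all alternatives its log2 fold change lay between 0.27 and 0.57 and its adjusted p between 6.5e-04 and 0.18. MT-ATP6 was not called without control replicate 3, where its log2 fold change was -0.22 (adjusted p = 0.057), without C3 replicate 3 (-0.29, adjusted p = 0.059) or with DESeq2 (-0.38, adjusted p = 0.10).

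**Figure D2:**
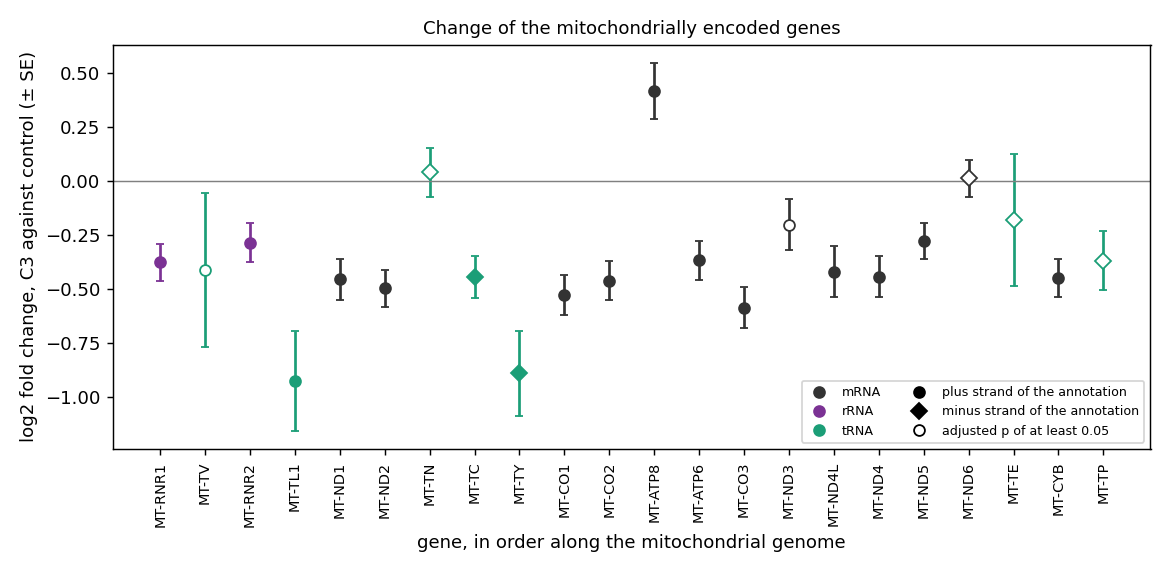
Log2 fold change of C3 against control with its standard error for the 22 tested mitochondrially encoded genes in genome order. Filled symbols passed the test at an adjusted p below 0.05, circles are plus-strand and diamonds minus-strand genes, and the heavy-strand mRNAs other than MT-ATP8 lie between -0.59 and -0.20.

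Both ribosomal RNAs fell. MT-RNR1, the RNA of the small ribosomal subunit (chrM:648-1601), had 14127, 15667 and 17981 CPM in controls and 13004, 12189 and 11583 CPM after C3. The groups did not overlap, and the log2 fold change of -0.38 (SE 0.085, adjusted p = 0.0024) stood just short of the gate of 1.3-fold. MT-RNR2, the RNA of the large subunit (chrM:1671-3229), had 5761, 6687 and 8169 CPM in controls and 5678, 5823 and 5401 CPM after C3. A C3 library reached into the control range, and the log2 fold change was -0.29 (SE 0.091, adjusted p = 0.026). The call of MT-RNR2 was lost without control replicate 3, where its log2 fold change was -0.14 (adjusted p = 0.23). It was also lost with DESeq2 (-0.29, adjusted p = 0.18), with scaling by library size alone (-0.21, adjusted p = 0.065), and without control replicate 2 (-0.31) or C3 replicate 3 (-0.26).

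Of the 22 tRNA genes, 7 passed the count filter, and 3 of these fell, all of them DEGs. MT-TL1 was at 5.05, 4.5 and 8.27 CPM in controls and 2.32, 4.42 and 2.53 CPM after C3, with a log2 fold change of -0.93 (SE 0.23, adjusted p = 0.0051). MT-TY was at 5.74, 8.26 and 5.52 CPM and at 2.75, 4.63 and 3.12 CPM (-0.89, SE 0.20, adjusted p = 0.0018). MT-TC was at 23.7, 26.8 and 31.1 CPM and at 20.9, 20.8 and 18.3 CPM (-0.44, SE 0.097, adjusted p = 0.0018). In these 3 genes all C3 libraries were below all control libraries, for MT-TL1 by a narrow margin. MT-TL1 lost its call without control replicate 3, where its adjusted p was 0.072. The DEG gates were missed by all 3 genes without C3 replicate 3, by MT-TL1 and MT-TC also with library size alone, by MT-TC without control replicate 3 and by MT-TY without control replicate 2. MT-TL1 also missed them with DESeq2, with a mean count of at least 50, and without control replicate 1 or C3 replicate 1. MT-TN, the neighbour of MT-TC across the replication origin, was at 38.7, 50.6 and 69.0 CPM and at 51.5, 56.2 and 54.2 CPM (0.039, SE 0.12, adjusted p = 0.86), with a wide control spread, and without control replicate 3 it was called higher (0.28, adjusted p = 0.040).

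MT-TP (tRNA-Pro) had 9.37, 10.3 and 12.6 CPM in controls and 8.19, 7.15 and 9.39 CPM after C3 (log2 fold change -0.37, SE 0.14, adjusted p = 0.056), and it was called lower without control replicate 1 or without C3 replicate 3. MT-TE (tRNA-Glu) was low in every library, with 1.32, 1.59 and 1.86 CPM and then 1.47, 1.80 and 0.97 CPM (-0.18, SE 0.31, adjusted p = 0.73). MT-TV (tRNA-Val) had 0.84, 2.11 and 1.28 CPM and then 0.73, 1.39 and 1.01 CPM (-0.41, SE 0.35, adjusted p = 0.46). The groups overlapped in all 3 genes. The other 15 tRNA genes were below the count filter, with no more than 15 counts in any library and between 0 and 40 counts over all 6, and none of them was called with no count filter. MT-TT (tRNA-Thr), singled out after its values were seen, had 15, 7 and 5 counts in controls and 2, 6 and 3 counts after C3, and it was the one gene of these 15 in which the CPM of the C3 libraries all lay below those of the controls. MT-TS2 had 0 counts in every library, which allows up to 3 counts, or 0.126 to 0.192 CPM in a library. A mature tRNA is much shorter than a usual RNAseq fragment, and the share of mitochondrial counts on tRNA genes was 0.221% ± 0.014 in controls and 0.256% ± 0.022 after C3 (SD, n = 3, exact permutation p = 0.2). Nuclear genes with merged exons of at most 300 bases had a median log2 fold change of 0.062, and 4 of the 76 tested were higher and 2 lower, beside 11.0% and 8.77% of all genes tested.

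Ratios within a library do not depend on how libraries are scaled, and they set the counts of mitochondrial genes against one another. MT-ND6 counts over the summed counts of the 12 heavy-strand mRNAs had log2 values of -7.20, -7.26 and -7.25 in controls and -7.02, -6.63 and -6.59 after C3. The controls lay close together and all C3 libraries above them, a difference of 0.49 on the log2 scale, or a ratio 1.40 times that of controls. Without C3 replicate 1, the nearest to the controls, the difference was 0.63. The log2 ratio of rRNA to mRNA counts was -0.16, -0.14 and -0.24 in controls and -0.092, -0.078 and 0.024 after C3, a difference of 0.13. With MT-RNR2 alone in place of both rRNAs the difference was 0.20. Each of these comparisons gave an exact two-sided permutation p of 0.1, the smallest possible with 3 libraries against 3.

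The log2 ratio of MT-ATP8 to MT-ATP6, also not a planned comparison, was -7.05, -7.29 and -7.29 in controls and -6.90, -6.28 and -6.23 after C3. This is a ratio 1.67 times that of controls (exact permutation p = 0.1). A single mRNA carries both genes, so this ratio of counts need not reflect a difference between transcripts. For the other pair with shared bases, MT-ND4L over MT-ND4, the difference of the group means was 0.049 and the groups overlapped (exact permutation p = 0.8). MT-TN over MT-TC had log2 values of 0.71, 0.92 and 1.15 in controls and 1.3, 1.43 and 1.56 after C3. The groups did not overlap, and the ratio was 1.42 times that of controls (exact permutation p = 0.1). The pair was not among the planned comparisons. It sets MT-TC, which fell, against MT-TN, which was not called, so the ratio restates the results of the single genes. The log2 ratio of MT-RNR1 to MT-RNR2 differed by -0.10 with overlapping groups (exact permutation p = 0.2). The library kit does not mark strand, so reads of MT-ND6 or of the minus-strand tRNAs and reads of RNA from the opposite strand at the same place cannot be told apart.

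**Figure D3:**
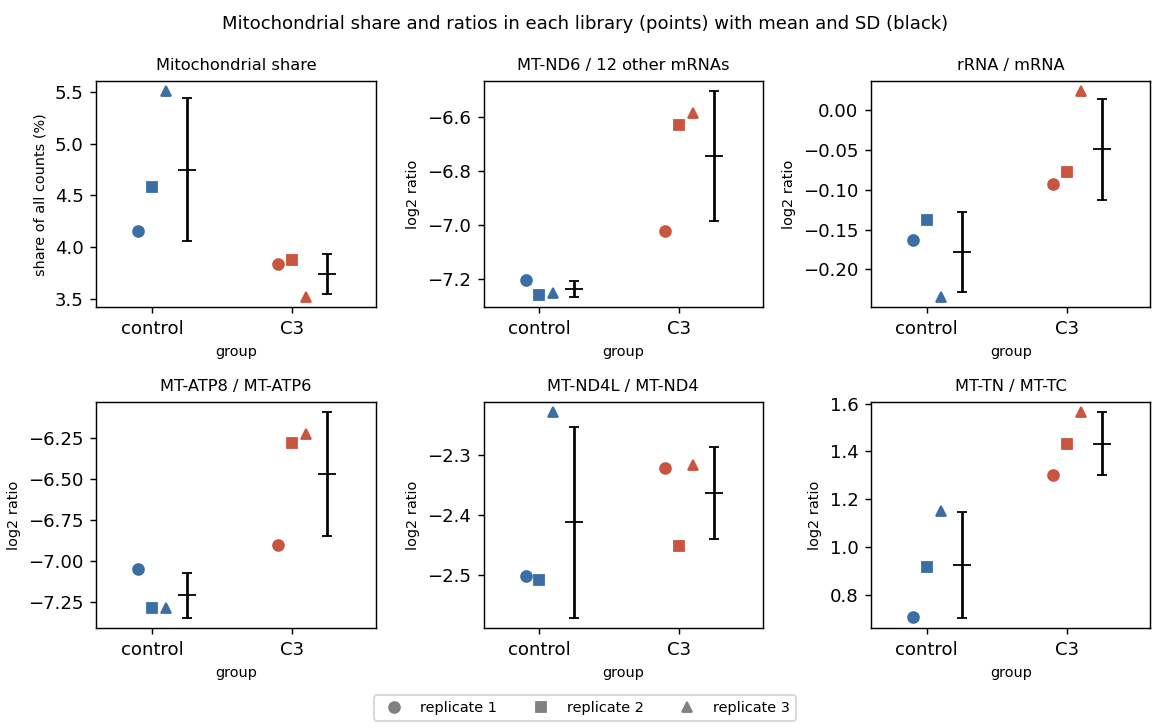
Share of all counts on the 37 mitochondrially encoded genes (percent, upper left) and 5 log2 ratios of mitochondrial counts within each library, by group. Points are libraries and black bars the mean with SD (n = 3), the vertical axes do not start at 0, and the groups are apart in 5 panels and overlap for MT-ND4L over MT-ND4.

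Within the 13 mRNAs, the shares of 5 genes separated the groups. For a single gene, full separation of 3 against 3 libraries equals an exact two-sided permutation p of 0.1, and 13 genes were compared. MT-CO3 took 14.5% ± 0.078 of mRNA counts in controls and 13.4% ± 0.43 after C3, with all C3 libraries lower. MT-ND5 went from 3.04% ± 0.054 to 3.50% ± 0.11, MT-ATP6 from 7.67% ± 0.073 to 8.30% ± 0.38 and MT-ND6 from 0.659% ± 0.014 to 0.931% ± 0.15 (SD, n = 3 libraries each). MT-ATP8 went from 0.0519% ± 0.0046 to 0.0961% ± 0.026. The C3 libraries were all higher in these 4 genes. The shares of a library add up to its whole mRNA count, so they are not independent, and a higher share is not a higher level. In CPM, MT-ND5 and MT-ATP6 fell (log2 fold changes of -0.28 and -0.37). MT-CO1 made up 38.0% ± 0.71 and 36.7% ± 0.62 of mRNA counts, and its groups overlapped.

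Levels per kilobase of gene, as CPM per kilobase over the control libraries, spanned from MT-RNR1 (16693) to MT-ATP8 (64.4). How reads over shared bases or with several matches were counted is not given. The order is therefore one of counts and not necessarily of RNA abundance. MT-CO1 (6356), MT-CO3 (4790), MT-RNR2 (4408) and MT-CO2 (4244) followed MT-RNR1, then MT-ATP6 (2915), MT-ND4 (1612), MT-CYB (1432), MT-ND4L (1430), MT-ND2 (992), MT-ND1 (913), MT-ND3 (810), MT-ND5 (434) and MT-ND6 (324). The mRNAs of complex IV and MT-ATP6 stood above those of complex I. Between neighbours in this order, the ranges of the control libraries were apart for MT-RNR1 and MT-CO1, MT-CO2 and MT-ATP6, MT-ATP6 and MT-ND4, MT-ND3 and MT-ND5, and MT-ND6 and MT-ATP8, and overlapped for all others. Compared within each library, every gene stood above the next in 3 of 3 control libraries, apart from MT-CYB and MT-ND4L. MT-CYB stood above MT-ND4L in 2 control libraries and in 1 C3 library. MT-CO3 stood above MT-RNR2 in 3 of 3 control libraries and in 0 of 3 C3 libraries. MT-ND1 stood above MT-ND3 in 3 control libraries and in 1 C3 library. The 6 mRNAs that end in an incomplete stop codon had log2 fold changes from -0.59 to -0.20 with a median of -0.45, and the 7 with a complete one from -0.53 to 0.42 with a median of -0.37, so these classes overlapped.

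None of the 14 nuclear genes of the machinery passed edgeR's test in either direction (0 of 14), beside 8.77% of all genes tested that fell and 11.0% that rose. DESeq2 and limma-voom also called 0, whereas scaling by library size alone and omission of the count filter each called 1 (TFAM). At an unadjusted p below 0.05 there were 3, TFAM, SUPV3L1 and TWNK, beside 32.1% of all genes tested. The log2 fold changes lay between -0.23 and 0.20 with a median of -0.011. In 3 genes, SUPV3L1, TWNK and POLG, all C3 libraries were below all control libraries, beside 16.9% of all genes tested.

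Among the transcription factors of mitochondria, TFAM, which packages the genome and bends its promoters, had 74.5, 72.2 and 84.1 CPM in controls and 76.1, 95.8 and 92.4 CPM after C3. C3 replicates 2 and 3 were above all controls and C3 replicate 1 was not (log2 fold change 0.20, SE 0.078, adjusted p = 0.071). TFAM was called higher without C3 replicate 1 (0.29, adjusted p = 0.0024), without control replicate 3, with scaling by library size alone (0.28, adjusted p = 0.026), and with no count filter (adjusted p = 0.029). POLRMT, the RNA polymerase, was at 183, 177 and 162 CPM and at 183, 165 and 170.0 CPM (-0.013, SE 0.065, adjusted p = 0.92). TFB2M, which melts the promoter, was at 38.1, 39.8 and 45.2 CPM and at 42.9, 40.6 and 39.0 CPM (-0.0062, SE 0.077, adjusted p = 0.97). Its relative TFB1M, an rRNA methyltransferase, was at 12.6, 13.5 and 17.6 CPM and at 14.1, 15.8 and 13.4 CPM (-0.0078, SE 0.12, adjusted p = 0.97). The elongation factor gene TEFM was the lowest of the 14, at 7.84, 7.86 and 6.93 CPM and at 5.75, 6.53 and 6.95 CPM (-0.23, SE 0.14, adjusted p = 0.27). MTERF1, whose protein binds the capitals shown in MT-TL1, was at 10.2, 11.5 and 10.9 CPM and at 9.05, 12 and 11.5 CPM (0.0056, SE 0.12, adjusted p = 0.98). The groups overlapped in all 6 genes.

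LRPPRC and SLIRP form a complex that binds mitochondrial mRNAs and keeps them stable. LRPPRC, the most abundant of the 14, was at 308, 319 and 324 CPM in controls and 315, 336 and 334 CPM after C3 (log2 fold change 0.050, SE 0.061, adjusted p = 0.62). SLIRP was at 49.7, 46.3 and 63.6 CPM and at 60.0, 55.3 and 57.9 CPM (0.12, SE 0.086, adjusted p = 0.35), and without control replicate 3 it was called higher (0.27, adjusted p = 0.016). The poly(A) polymerase gene MTPAP was at 143, 144 and 154 CPM and at 129, 147 and 139 CPM (-0.088, SE 0.065, adjusted p = 0.38). PNPT1 and SUPV3L1 encode the nuclease and the helicase of the RNA degrading complex. PNPT1 was at 43.7, 41.6 and 46.8 CPM and at 40.6, 47.6 and 45.8 CPM (0.023, SE 0.076, adjusted p = 0.88). SUPV3L1 was at 37.2, 37.2 and 36.4 CPM and at 34.3, 29.0 and 33.1 CPM, with every C3 library lower (-0.20, SE 0.078, adjusted p = 0.071), and without C3 replicate 1 it was called lower (-0.25, adjusted p = 0.025).

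ELAC2, which cuts the 3′ ends of tRNAs out of the long RNAs, was at 266, 265 and 254 CPM in controls and 269, 241 and 239 CPM after C3 (log2 fold change -0.069, SE 0.064, adjusted p = 0.50). TWNK, the helicase of the replication fork, was at 96.1, 91.6 and 87.4 CPM and at 86.0, 79.9 and 83.6 CPM (-0.14, SE 0.064, adjusted p = 0.13). It was called lower without C3 replicate 1 (adjusted p = 0.0499). POLG, the catalytic subunit of the DNA polymerase, was at 105, 101 and 97.8 CPM and at 97.8, 96.8 and 96.6 CPM (-0.062, SE 0.062, adjusted p = 0.53). Its C3 libraries lay within a narrow range just below the lowest control. Part of the exon bases are shared with other genes in TFB1M (38.7%), MTPAP (33.3%), TEFM (20.5%), POLG (15%) and SLIRP (14.8%), so part of their reads is uncertain.

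**Figure D4:**
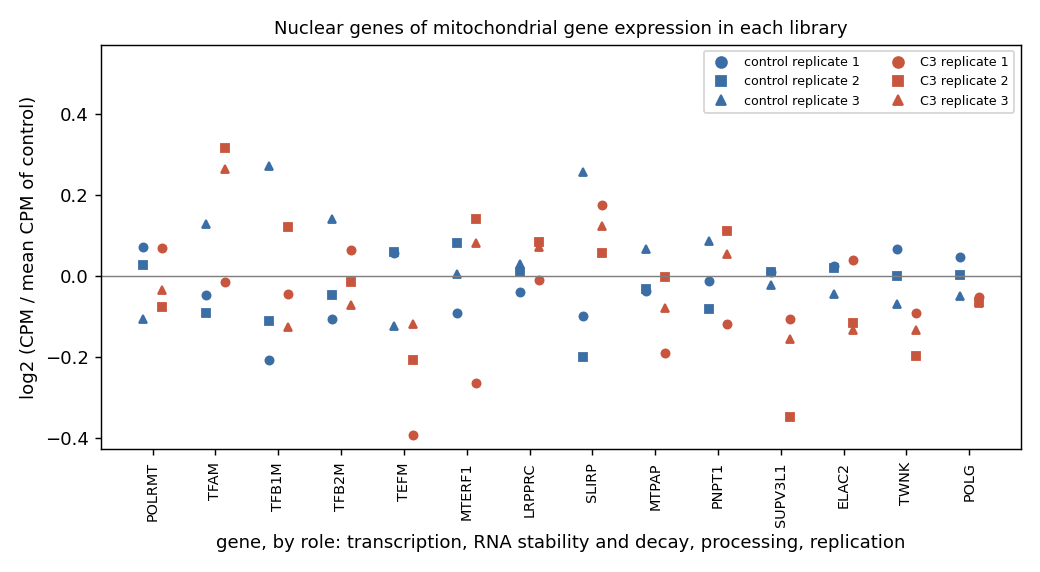
Level of the 14 nuclear genes in each library, as log2 of CPM over the mean CPM of the control libraries, ordered by role from transcription to replication. Blue points are control and red points C3 libraries, and the groups are apart in SUPV3L1, TWNK and POLG and overlap in the other 11 genes.

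A wider list of 77 nuclear genes of mitochondrial RNA processing, RNA modification, DNA maintenance, and transcription, ribosome assembly and translation was written from general knowledge. All 77 were tested, and 9 fell and 1 rose, beside 8.77% and 11.0% of all genes tested. The genes that fell numbered 2 of 16 for processing and decay, 3 of 22 for modification, 1 of 15 for DNA maintenance and 3 of 24 for transcription, assembly and translation. The list's median log2 fold change was -0.074. The count of falls moved to 3 with library size alone and to 3 without C3 replicate 3, to 4 without control replicate 2, to 5 without C3 replicate 2 and to 19 without C3 replicate 1, and without control replicate 1 it was 6.

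FASTKD2, which binds the large ribosomal RNA and is needed for assembly of the large ribosomal subunit, had 63.6, 59.9 and 63.8 CPM in controls and 48.1, 49.6 and 46.2 CPM after C3. It was the one DEG of the list (log2 fold change -0.38, SE 0.068, adjusted p = 2.39e-04), and it was called under every alternative run, although its fold change was short of the DEG gate with library size alone, no count filter or a mean count of at least 50, and without control replicate 1, control replicate 3 or C3 replicate 3. RCC1L, which takes part in assembly of the same subunit, was at 135, 134 and 134 CPM and at 121, 93.1 and 103 CPM (-0.35, SE 0.074, adjusted p = 0.0014). ERAL1, a chaperone of the small ribosomal RNA, was at 129, 126 and 125 CPM and at 118, 100.3 and 97.0 CPM (-0.27, SE 0.070, adjusted p = 0.0069). MTO1, which modifies the wobble base of some tRNAs, was at 43.7, 44 and 42.6 CPM and at 37.5, 35.5 and 35.3 CPM (-0.27, SE 0.071, adjusted p = 0.0082). In these 4 genes all C3 libraries were lower. The calls of ERAL1 and MTO1 were lost without C3 replicate 3, that of MTO1 also with library size alone, and RCC1L and ERAL1 share 22.8% and 13% of their exon bases with other genes. REXO2, an exonuclease that clears very short RNAs, rose from 22.4, 24.2 and 24.3 CPM to 26.2, 29.4 and 27.6 CPM (0.24, SE 0.083, adjusted p = 0.047). Its call was lost with DESeq2, with no count filter and without any one library other than C3 replicate 1.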

How the data were processed

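RNA of 3 control and 3 C3 libraries of Meg-01 was sequenced after preparation with a NEBNext Ultra RNA kit. The deposited values are unnormalized counts of reads on each gene, which the authors made by cleaning reads with fastp, mapping to GRCh38/hg38 with STAR (2.6.1d) and counting with featureCounts (1.5.0-p3), with versions from the submitters' processing notes. Information on the strand setting, the annotation release, RNA selection and the counting of reads with several matches or over shared bases was not given in the sources used here.

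A gene was tested if 3 or more libraries had 10 or more counts (15078 of 58735 genes). The test was the quasi-likelihood test of edgeR (version 4.0.16 in R 4.3.3) with TMM scaling and Benjamini-Hochberg adjustment over all of them. CPM are the usual scaled counts, here relative to the TMM-scaled library total. Standard errors (SE) were taken from the F statistic, as the log2 fold change over its square root. Shares and ratios were compared with exact two-sided permutation tests over libraries. Symbols were found for 58207 gene identifiers, and positions and sequences came from GENCODE release 44 and hg38. Intervals and count limits cover counting error only.

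The mitochondrial genes, the nuclear genes and the lists were chosen with earlier results of these data known. Named were each mRNA and rRNA gene, the tRNA genes that passed the filter and the 14 nuclear genes, up to 4 called genes with the smallest p per direction of the wider list, and up to 3 called regulators and pseudogenes. Alternatives were RLE factors, library size alone, TMM without mitochondrial genes, omitting the count filter, a minimum mean count of 50, DESeq2 (1.42.0), limma-voom (limma 3.58.1), the replicate number as a block and each library left out. For the shares and ratios, sets of genes were also varied.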

Additional observations from a re-analysis of the deposited data

How the results depend on the processing

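Of 22 mitochondrially encoded genes tested, 15 fell, and this count was 9 with DESeq2, 17 with the replicate block and 10 to 16 with a library left out. The gene that rose was not called with DESeq2 (0), and 0 to 2 were called with a library left out. The 10 lower DEGs became 6 with library size alone, 6 with DESeq2 and 3 to 13 with a library left out. Of the 16 called genes, none changed sign under any alternative run. In the nuclear machinery, 1 gene was called higher with library size alone, 1 with no count filter and 1 with the replicate block, which also called 1 lower, and with a library left out 0 to 2 were called higher and 0 to 2 lower. In the wider list, 9 fell, and 3 did with library size alone, 16 with the replicate block and 3 to 19 with a library left out. Its rise was lost with no count filter (0) and DESeq2 (0), with 0 to 1 when a library was left out. The share difference of -1.01 percentage points lay between -1.30 and -0.63 with a library left out, the MT-ND6 ratio between 0.41 and 0.63, and the rRNA to mRNA ratio between 0.094 and 0.15, or 0.20 with MT-RNR2 alone.

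Changes of sign were found in genes that were not called. With library size alone, which moved the median of all genes to 0.076, POLRMT was at 0.059, TFB1M at 0.068, TFB2M at 0.068, ELAC2 at 0.0032 and POLG at 0.012. TFB1M was at 0.0031 and TFB2M at 0.0040 with no count filter, at 0.0057 and 0.0072 with a mean count of at least 50, and TFB1M at 0.0062 with limma-voom. MTERF1 was at -0.0067 with DESeq2 and at -0.0071 with the replicate block. With a library left out, log2 fold changes ran from -0.68 to 0.0077 (MT-TV), -0.13 to 0.28 (MT-TN), -0.34 to 0.038 (MT-ND3), -0.069 to 0.15 (MT-ND6), -0.41 to 0.055 (MT-TE), -0.063 to 0.036 (POLRMT), -0.091 to 0.14 (TFB1M), -0.045 to 0.067 (TFB2M), -0.067 to 0.11 (MTERF1) and -0.024 to 0.084 (PNPT1). The cause was not tested. Same-numbered libraries did not deviate together (correlations of 0.021, -0.047 and 0.030), so the replicate block pairs libraries that share a number and nothing else known, and within such pairs the share, the MT-ND6 ratio and the rRNA ratio gave an exact p of 0.25. The block added calls for MT-ND3 (-0.19, adjusted p = 0.030) and MT-TP (-0.38, adjusted p = 0.019), which fell, for SUPV3L1 (-0.20, adjusted p = 0.049) in the same direction and for TFAM (0.19, adjusted p = 0.023) in the other. The 15 tRNA genes below the count filter were not part of the main test.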

Other observations

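Regulators of mitochondrial biogenesis were measured beside the mitochondrial genes. Of 12 such genes, 11 were tested, and PPARGC1A, the coactivator PGC-1alpha, was below the count filter. In edgeR's test 1 of the 11 rose, 1 fell and 9 were not called, beside 11.0% and 8.77% of all genes tested that rose and fell. PPARGC1B, a coactivator of the same family, was at 58.1, 52.3 and 47.8 CPM in controls and 63.8, 61.8 and 64.1 CPM after C3 and rose (log2 fold change 0.26, SE 0.072, edgeR adjusted p = 0.012). SIRT1, a deacetylase, was at 18.3, 20.6 and 21.4 CPM and at 16.1, 16.8 and 16.5 CPM and fell (-0.29, SE 0.095, adjusted p = 0.033). In both genes the groups did not overlap. The call of PPARGC1B was lost without control replicate 2, control replicate 3 or C3 replicate 3, and that of SIRT1 with DESeq2 (adjusted p = 0.079), library size alone, no count filter and without either control replicate 2, control replicate 3, C3 replicate 2 or C3 replicate 3. NRF1 and GABPA, transcription factors of nuclear genes for mitochondrial proteins, were at log2 fold changes of 0.028 (adjusted p = 0.86) and -0.14 (adjusted p = 0.26).

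Nuclear copies of mitochondrial DNA can share reads with the mitochondrial genes. Of 404 such rows found by symbol, 6 passed the count filter, all of them in one block on chromosome 1 (GRCh38, plus strand, 629062 to 634922), and 3 fell, beside 8.77% of all genes tested. MTATP6P1 was at 205, 215 and 325 CPM in controls and 199, 163 and 161 CPM after C3 (log2 fold change -0.51, SE 0.11, adjusted p = 0.0016). MTND1P23 was at 33.5, 35.4 and 48.2 CPM and at 29.3, 29.8 and 22.8 CPM (-0.52, SE 0.11, adjusted p = 0.0014). MTCO1P12 was at 19.6, 18.3 and 31.0 CPM and at 19.8, 15.7 and 17.2 CPM (-0.38, SE 0.14, adjusted p = 0.047). Like the mitochondrial mRNAs, each was highest in control replicate 3, and without it MTATP6P1 was at -0.27 (adjusted p = 0.019), MTND1P23 at -0.34 (adjusted p = 0.022) and MTCO1P12 at -0.12 (adjusted p = 0.52). With DESeq2, MTATP6P1 (adjusted p = 0.14) and MTCO1P12 (adjusted p = 0.088) were not called. MTCO1P12 also lost its call with limma-voom, with library size alone, with a mean count of at least 50, and without C3 replicate 2 or C3 replicate 3. The other 3 copies were not called. MTND2P28 had a log2 fold change of -0.31 (adjusted p = 0.077) with all C3 libraries lower, MTCO3P12 one of -0.29 (adjusted p = 0.53) and MTCO2P12 one of -0.025 (adjusted p = 0.98). How reads were divided between these copies and the mitochondrial genes was not tested, so the values of MT-ATP6, MT-ND1, MT-ND2, MT-CO1, MT-CO2 and MT-CO3 are uncertain to that extent.

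Across the 12 heavy-strand mRNAs, the log2 fold change had a Pearson correlation with GC content of -0.75, and of -0.65 over 11 without MT-ATP8. The Spearman values were -0.66 and -0.55. Gene length had Pearson values of -0.45 and -0.13 and Spearman values of -0.41 and -0.24 over the same sets. Start position had Pearson values of 0.10 and 0.36 and Spearman values of 0.41 and 0.53. These genes share their libraries and are not independent.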
